A study of Sus scrofa with 8 samples.

Results

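The genes examined here carry the adrenergic and muscarinic signals of the heart: receptors, the kinases that switch those receptors off, and the adenylyl cyclases that the receptors control. They are defined by a list of names (ADRB1, ADRB3, ADRA1A, ADRA1B, CHRM2, ADRBK1, GRK5, ADCY5 and ADCY6) with no cutoff on measured values, although earlier results of these data were known when the list was drawn up. Of the 9 names, 7 were found in the expression table, in 8 of its 18975 rows, because ADCY6 has 2 rows. The muscarinic receptor CHRM2 has no row under that name and is not analysed here, so that the muscarinic arm appears below only through its G proteins, its potassium channel and its other receptors. The row of the alpha-1A receptor is listed under the name ALPHA-1A and was matched to ADRA1A by its Ensembl ID, and it is given beside the chosen genes without being counted among them.

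Noradrenaline from sympathetic nerves and circulating adrenaline act on the heart mainly through the beta-1 receptor, which couples through the stimulatory G protein to adenylyl cyclase, raises cyclic AMP, activates protein kinase A, and so increases the rate and force of contraction. Alpha-1 receptors act through phospholipase C and protein kinase C, while acetylcholine from the vagus nerve acts on M2 receptors, which inhibit adenylyl cyclase and open a potassium channel. Receptors that stay occupied are phosphorylated by G protein-coupled receptor kinases and then silenced by arrestins. Sustained sympathetic drive, as in heart failure or at altitude, is known to lower the number of beta receptors on cardiac cells.

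RNA was measured in the hearts of male pigs at 6 months of age, in 4 groups: Tibetan pigs kept in the highlands (TH) or the lowlands (TL), and Yorkshire pigs kept in the highlands (YH) or the lowlands (YL). There were 2 libraries per group, and the study's methods state that 4 pigs were pooled in each, so the spread between libraries is one between pools. The descriptions given for both YL libraries refer to the data of TL, in conflict with their titles, breed and source, and every YL value below rests on the titles being right. Values are FPKM, the fragments on a gene per kilobase of transcript, scaled to all mapped fragments of the library. They correct for gene length and allow levels to be compared between genes within a library. FPKM totals differed between libraries, from 1563940 in YL2 to 8559104 in TH1, against 2829255 in TH2. Levels, sums and overlaps between libraries are given below without correction for these totals. Between 15687000 and 26723000 reads per library fell on genes.

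The libraries differed in their levels of marker genes of tissues and cell types. In YL2, the second library of lowland Yorkshire pigs, the summed level of 10 kidney genes was 4530 FPKM, against 0.97 to 17.6 FPKM in the other libraries, where the defining kidney genes UMOD and AQP2 were each at 0 or under 1 FPKM. The summed level of 8 cardiomyocyte genes was lowest in YL2, at 13700 FPKM, and lay between 20800 and 37000 FPKM in the others. Comparisons that include YL are therefore given with and without YL2, and without it YL is a single library. The summed level of 6 atrial genes was highest in both TH libraries (6640 and 5410 FPKM, against 425 to 2630 FPKM). NPPA, which encodes atrial natriuretic peptide, was at 2260 and 2150 FPKM in TH against 23.1 to 108 FPKM in the others, MYL7 at 4280 and 3210 against 337 to 2580 FPKM, and SLN at 56.5 and 16.3 against 0.812 to 3.52 FPKM. The other 3 genes of the list did not separate TH: MYL4 was highest in TL (8.85 and 21.4 FPKM), NR2F2 was highest in YL2 (14.4 FPKM), and DKK3 in TH (25.4 and 31.3 FPKM) overlapped TL (23.2 and 29.8 FPKM). Smooth muscle genes (5 matched) summed to 369 and 335 FPKM in TH against 108 to 242 FPKM in the others. CNN1 (132 and 89.5 FPKM) and TAGLN (146 and 131 FPKM) were highest in TH. The rest of that list did not separate TH upward: ACTA2 (49.3 and 80.6 FPKM) overlapped TL (74.9 and 50.4 FPKM), SMTN (41.8 and 31.4 FPKM) overlapped the other groups, and MYH11 was lowest in TH1 (0.388 FPKM). Leukocyte genes (5 matched) summed to 22.4 and 31.1 FPKM in YH against 12.3 to 17.4 FPKM. CD3E (6.6 and 9.08 FPKM against at most 2.84 FPKM) and PTPRC (6.1 and 6.19 against at most 2.98 FPKM) separated YH. The rest of that list did not: CD68 in YH (3.63 and 6.43 FPKM) overlapped TH (5.39 and 5.95 FPKM), CD14 was highest in YL1 (9.68 FPKM) and CD79A in TH1 (1.45 FPKM). The library TH1 also stood apart in some genes. Its cardiomyocyte sum was the highest (37000 FPKM), of which TNNI3 gave 16800 FPKM, while its RYR2 (39.8 FPKM) lay below TL and YH. TH1 and YL2, with the highest and lowest cardiomyocyte sums, also had the highest and lowest FPKM totals, whose part was not tested. The endothelial gene VWF was at 1.07 FPKM in TH1 against 6.42 to 25.9 FPKM elsewhere, but PECAM1, of the same list, was highest in TH1 (96.8 FPKM). The endothelial sum of TH1 (119 FPKM) lay within the range of the others (67.4 to 142 FPKM). The part of these marker genes in the TH and YH comparisons was not tested. In whole tissue, fewer cells of a type and less RNA per cell cannot be told apart.

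Differences were tested with limma on the log2(FPKM + 1) scale, in a single fit of all 8 libraries over the 11913 genes that reached 1 FPKM in at least 2 libraries, with p-values adjusted by the Benjamini-Hochberg method over all of them. To be called, a gene needed an adjusted p under 0.01 together with a log2 fold change beyond 1 in either direction. For genes of only a few FPKM the added 1 makes these fold changes smaller than those of the FPKM themselves. Of the 8 rows, 7 could be tested. Breeds were compared at high altitude (TH vs. YH) and at low altitude (TL vs. YL), altitudes within the Tibetan (TH vs. TL) and the Yorkshire breed (YH vs. YL), and the breed average, the altitude average and the interaction of breed with altitude were taken from the same fit. No row was called in any of these 7 comparisons. Calls were rare among all genes as well, at 0.0336% in TH vs. YH, 0.00839% in TL vs. YL, 0.0504% in TH vs. TL, 0% in YH vs. YL, 0.0504% for the breed average, 0.0336% for the altitude average and 0.0336% for the interaction. At an unadjusted p under 0.05, limma picked 1 row in TH vs. YH (14.3% of 7, against 16.2% of all genes tested), 1 in TL vs. YL (against 8.94%), 1 in TH vs. TL (against 11.3%), 0 in YH vs. YL (against 5.97%), 0 for the breed average (against 13.5%), 1 for the altitude average (against 7.22%) and 1 for the interaction (against 10.9%). Without YL2, limma again called 0 of the 7 rows, and 2 of them passed an unadjusted p of 0.05 in each comparison but YH vs. YL, where it was 0, against 5.45% to 22.7% of all genes. Counts of 0 to 2 rows in 7 do not set these genes apart from the table as a whole.

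The levels of these genes spanned a wide range. ADCY6 was the most abundant, with a mean of 80.6 FPKM over the 8 libraries, followed by ADRB1 at 32.7, ADRBK1 at 22, GRK5 at 19.4, ADCY5 at 11, ADRA1B at 6.22, the second ADCY6 row at 5.54 and ADRA1A at 2.07 FPKM. ADCY6 exceeded ADRB1 in 8 of 8 libraries and their ranges did not overlap. Neighbours further down were less separate: ADRB1 exceeded ADRBK1 in 6 libraries, ADRBK1 exceeded GRK5 in 5, GRK5 exceeded ADCY5 in 6, ADCY5 exceeded ADRA1B in 7 and ADRA1B exceeded the second ADCY6 row in 5, all with overlapping ranges. The plot of levels by gene shows this order together with the low YL2 values of ADRB1 and GRK5.

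**Figure D1:**
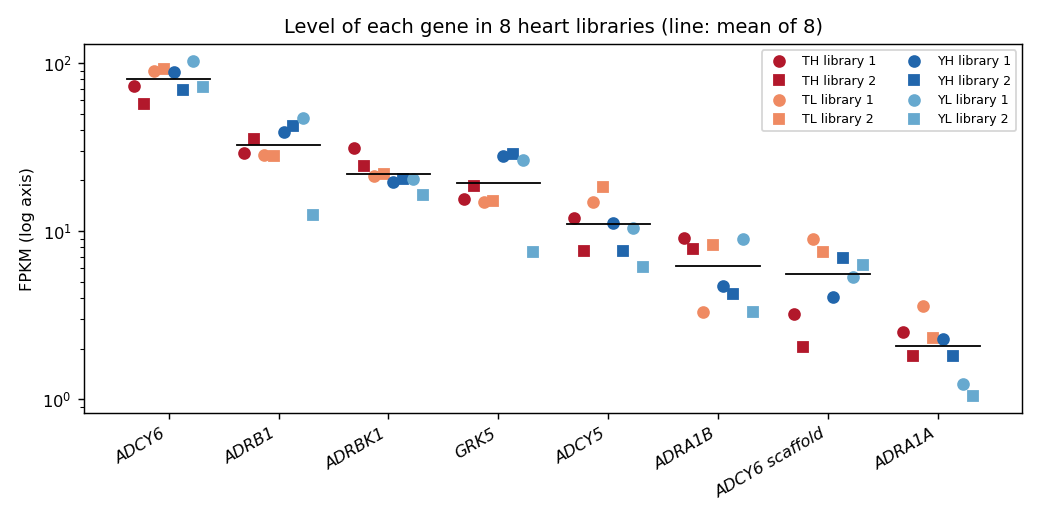
FPKM of each gene on a log axis, with 1 point per library (color for the group, shape for the library) and a line at the mean of 8 libraries. ADCY6 lies above every other gene, and the YL2 points of ADRB1 (12.4 FPKM) and GRK5 (7.48 FPKM) lie far below the other libraries of those genes.

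Steadiness across libraries differed from gene to gene. The coefficient of variation over the 8 libraries was 18.8% for ADCY6 and 20.2% for ADRBK1, below the median of 30.8% over the genes tested. It was 32.8% for ADRB1, 37.2% for ADCY5, 39.6% for GRK5, 41.2% for ADRA1B and 42% for the second ADCY6 row. The most variable of these rows stood at the percentile of 69.6 among all genes tested, and the least variable at 19.4.

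Among the receptors, ADRB1 (ENSSSCG00000010647, Sscrofa10.2 chromosome 14, 135520691 to 135522044) encodes the beta-1 adrenergic receptor, the main receptor for noradrenaline on cardiac muscle. Its levels were 29.2 and 35.2 FPKM in TH, 28.5 and 28.1 FPKM in TL, 38.6 and 42.4 FPKM in YH, and 46.9 and 12.4 FPKM in YL. Each Tibetan library lay below the Yorkshire libraries other than YL2, and YL2 was the lowest of all, at 390 reads against 486 to 1386 in the others. At high altitude TH lay below YH without overlap, as 52.5% of all genes tested did in either direction, by a log2 fold change of -0.33 (SE 0.54, 95% CI -1.6 to 0.95, adjusted p = 0.79 by limma). TL vs. YL gave 0.21 (SE 0.54, adjusted p = 0.938), with YL1 above and YL2 below both TL libraries.

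Without YL2 the low-altitude difference between breeds in ADRB1 turned to -0.71 (SE 0.23, unadjusted p = 0.0195, adjusted p = 0.387 by limma). The breed average, Tibetan minus Yorkshire, moved from -0.06 (SE 0.38, adjusted p = 0.952) to -0.52 (SE 0.15, adjusted p = 0.162). Neither passed the test. With altitude, ADRB1 differed little in Tibetan pigs (TH vs. TL 0.17, SE 0.54, adjusted p = 0.936), and in Yorkshire pigs the difference was 0.71 (SE 0.54, adjusted p = 0.79) with YL2 and -0.21 (SE 0.23, adjusted p = 0.917) without it. No difference of ADRB1 RNA with altitude passed the test in either breed, and the interval was -1.1 to 1.45 for TH vs. TL.

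ADRB3 (ENSSSCG00000015821, chromosome 15, 55482167 to 55484072) encodes the beta-3 receptor, which is best known from fat and counters beta-1 signaling in the heart. A single read was found in each of TL1, TL2 and YH2, at 0.0542, 0.0452 and 0.038 FPKM, and 0 reads in the other libraries, where a count of 0 allows up to 3 reads. ADRB3 did not pass the filter on low values and was not tested. A difference between the groups was not detectable at this depth.

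ADRA1B (ENSSSCG00000017041, chromosome 16, 69039661 to 69092287) encodes the alpha-1B receptor, which signals through phospholipase C. Its levels were 9.11 and 7.8 FPKM in TH, 3.32 and 8.31 FPKM in TL, 4.73 and 4.23 FPKM in YH, and 8.96 and 3.3 FPKM in YL. The libraries within each lowland group lay far apart, whereas those within each highland group lay close together. TH exceeded YH without overlap, by 0.78 (SE 0.48, 95% CI -0.36 to 1.93, adjusted p = 0.458 by limma). TL and YL overlapped, with a log2 fold change of -0.05 (SE 0.48, adjusted p = 0.987), and YH vs. YL was -0.26 (SE 0.48, adjusted p = 0.912). Both depended on YL2. Without it limma gave -0.65 (SE 0.44, adjusted p = 0.743) for TL vs. YL and -0.86 (SE 0.44, adjusted p = 0.917) for YH vs. YL, with YL1 above both libraries of each other group compared. The interaction of breed with altitude was 0.83 (SE 0.68, adjusted p = 0.653) with YL2 and 1.44 (SE 0.57, unadjusted p = 0.0445, adjusted p = 0.377) without it.

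The alpha-1A receptor, ADRA1A (ENSSSCG00000009661, chromosome 14, 11814049 to 11909810), uses the same pathway as ADRA1B. It was found at 2.5 and 1.81 FPKM in TH, 3.6 and 2.31 FPKM in TL, 2.28 and 1.8 FPKM in YH, and 1.23 and 1.04 FPKM in YL. Both YL libraries lay below every other library in FPKM. Read numbers were small, at 44 in YL1 and 67 in YL2 against 72 in TH2 to 164 in TL1, before any scaling for depth. TL exceeded YL by 0.87 (SE 0.25, unadjusted p = 0.0102, adjusted p = 0.348 by limma) and, with YL2 left out, by 0.81 (SE 0.3, adjusted p = 0.465). YH exceeded YL by 0.51 (SE 0.25, adjusted p = 0.784), and by 0.44 (SE 0.3, adjusted p = 0.917) without YL2. The 2 alpha-1 receptors thus differed in which group was lowest, and none of these differences passed the test.

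The balance between the beta-1 and alpha-1B receptors was uneven. The ratio of ADRB1 to ADRA1B was 3.21 and 4.51 for TH, 8.58 and 3.39 for TL, 8.16 and 10 for YH, and 5.23 and 3.74 for YL. Both YH values exceeded both TH values, while the 2 TL libraries alone spanned most of the range.

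Of the receptor kinases, GRK5 (ENSSSCG00000010683, chromosome 14, 140637967 to 140875398) is one of the main forms in the heart and phosphorylates beta receptors at the membrane. Its levels were 15.6 and 18.5 FPKM in TH, 14.8 and 15.2 FPKM in TL, 28.1 and 28.8 FPKM in YH, and 26.6 and 7.48 FPKM in YL. The 4 Tibetan libraries lay between 14.8 and 18.5 FPKM and 3 of the 4 Yorkshire libraries between 26.6 and 28.8 FPKM, with YL2 below all of them. Read numbers were large, from 1717 in YL2 to 5616 in YH2, so that counting error is small beside these gaps. TH lay below YH by -0.71 (SE 0.5, 95% CI -1.89 to 0.47, adjusted p = 0.507 by limma), and TL vs. YL was 0.06 (SE 0.5, adjusted p = 0.982).

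The difference in GRK5 between breeds depended on YL2. Without that library limma gave -0.71 (SE 0.18, unadjusted p = 0.00652, adjusted p = 0.0977) at high altitude, -0.79 (SE 0.22, unadjusted p = 0.0101, adjusted p = 0.332) at low altitude and -0.75 (SE 0.14, unadjusted p = 0.00155, adjusted p = 0.0741) for the breed average, which had been -0.32 (SE 0.35, adjusted p = 0.71) with all 8 libraries. None of these was called, as was the case for all but 0.0839% of genes for the breed average without YL2. In that set, 6.56% of all genes tested were likewise lower in every Tibetan than in every Yorkshire library, and 14.6% were apart in either direction. The values for ADRB1 and GRK5 in each group are shown side by side in the plot of those genes.

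**Figure D2:**
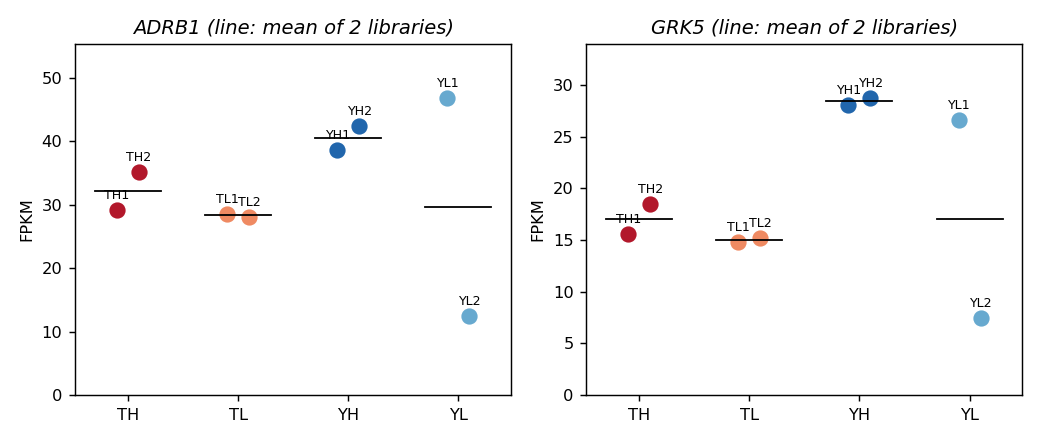
FPKM of ADRB1 and GRK5 in each library (points, colored by group), with a line at the mean of the 2 libraries of each group and axes from 0. In both genes YL1 lies near or above the YH libraries and YL2 lies below all other libraries.

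With altitude, GRK5 was nearly level in Tibetan pigs, at 0.17 (SE 0.5, adjusted p = 0.93) for TH vs. TL. In Yorkshire pigs YH exceeded YL by 0.95 (SE 0.5, 95% CI -0.24 to 2.13, adjusted p = 0.784), and by only 0.09 (SE 0.22, adjusted p = 0.949) without YL2. Leaving out YL1 instead gave 1.8 (SE 0.21, adjusted p = 0.00681), the single call of any of these genes under any setting tried, and it rests on YL2 alone.

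ADRBK1 (ENSSSCG00000012918, chromosome 2, 3992423 to 4000951) encodes GRK2, the kinase that is drawn to active beta receptors by free G protein beta-gamma subunits and is known to increase in failing hearts. Its levels were 31.3 and 24.5 FPKM in TH, 21.3 and 21.8 FPKM in TL, 19.5 and 20.3 FPKM in YH, and 20.5 and 16.4 FPKM in YL. All 4 Tibetan libraries exceeded all 4 Yorkshire libraries, although TL1 exceeded YL1 only slightly. Among all genes tested, 8.03% were apart between the breeds in this way, and 4.57% with the Tibetan libraries higher. The breed average was 0.34 (SE 0.15, unadjusted p = 0.0637, adjusted p = 0.395 by limma), and 0.26 (SE 0.15, adjusted p = 0.438) without YL2. The separate differences were 0.46 (SE 0.22, 95% CI -0.06 to 0.98, adjusted p = 0.356) for TH vs. YH and 0.22 (SE 0.22, adjusted p = 0.806) for TL vs. YL. TH also exceeded TL, by 0.35 (SE 0.22, adjusted p = 0.593), while YH and YL overlapped, at 0.11 (SE 0.22, adjusted p = 0.917). Without YL2 these were 0.07 (SE 0.23, adjusted p = 0.974) for TL vs. YL and -0.04 (SE 0.23, adjusted p = 0.984) for YH vs. YL.

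The order of the kinases differed between the Tibetan libraries and YH1, YH2 and YL1, while YL2 had the order of the Tibetan ones. This comparison has no test of its own, and the breed average of neither kinase passed the test. The ratio of ADRBK1 to GRK5 was 2.01 and 1.32 for TH, 1.44 and 1.44 for TL, 0.695 and 0.703 for YH, and 0.772 and 2.19 for YL. ADRBK1 was the more abundant of the kinases in every Tibetan library, and GRK5 in YH1, YH2 and YL1. In YL2 the ratio was the highest of all. In contrast, the ratio of ADRB1 to GRK5 kept to a narrow band, at 1.87 and 1.9 for TH, 1.93 and 1.86 for TL, 1.38 and 1.47 for YH, and 1.76 and 1.65 for YL. ADRB1 and GRK5 had the most similar profiles of any pair of the 7 rows tested, with a mean absolute difference of 0.146 on the centred log2(FPKM + 1) scale over 8 libraries, against 0.303 to 0.772 for the other pairs. This is a description over libraries that share YL2, whose low values in both genes contribute to it.

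The adenylyl cyclases make cyclic AMP, and types 5 and 6 are the main forms of cardiac muscle, both inhibited by the G protein of the M2 receptor. ADCY5 (ENSSSCG00000027952, chromosome 13, 146611881 to 146680478) was found at 11.9 and 7.65 FPKM in TH, 15 and 18.4 FPKM in TL, 11.2 and 7.62 FPKM in YH, and 10.4 and 6.12 FPKM in YL. The 2 TL libraries were the highest of the 8, and the other groups overlapped each other. TL exceeded YL by 0.97 (SE 0.34, 95% CI 0.17 to 1.77, unadjusted p = 0.0245, adjusted p = 0.454 by limma), and by 0.63 (SE 0.35, adjusted p = 0.657) without YL2. TH lay below TL by -0.73 (SE 0.34, unadjusted p = 0.0663, adjusted p = 0.471), whereas TH and YH were nearly level at 0.04 (SE 0.34, adjusted p = 0.96). The interaction of breed with altitude was -0.92 (SE 0.48, adjusted p = 0.523), and -0.58 (SE 0.45, adjusted p = 0.574) without YL2.

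ADCY6 (ENSSSCG00000000175, chromosome 5, 15129051 to 15145294) was found at 73.2 and 57.1 FPKM in TH, 89.3 and 92.2 FPKM in TL, 88.9 and 69 FPKM in YH, and 103 and 72 FPKM in YL. Both TH libraries lay below both TL libraries, while the Yorkshire groups overlapped. TH vs. TL was -0.48 (SE 0.27, 95% CI -1.13 to 0.17, adjusted p = 0.552 by limma) and YH vs. YL was -0.14 (SE 0.27, adjusted p = 0.917). The breeds did not differ beyond their spread, at -0.27 (SE 0.27, adjusted p = 0.643) for TH vs. YH and 0.07 (SE 0.27, adjusted p = 0.964) for TL vs. YL. Without YL2, TL vs. YL was -0.18 (SE 0.28, adjusted p = 0.915) and YH vs. YL -0.39 (SE 0.28, adjusted p = 0.917).

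A second row named ADCY6 (ENSSSCG00000030620) lies on the unplaced scaffold GL892673.2, at 15065 to 27147. How reads that match both places were counted is not given in the sources used here, so the division of reads between the rows is uncertain. Its levels were 3.2 and 2.06 FPKM in TH, 8.95 and 7.55 FPKM in TL, 4.05 and 6.89 FPKM in YH, and 5.33 and 6.31 FPKM in YL. The TH libraries were the lowest of the 8 and the TL libraries the highest. TH lay below TL by -1.36 (SE 0.29, 95% CI -2.05 to -0.68, unadjusted p = 0.0023, adjusted p = 0.203 by limma) and below YH by -0.82 (SE 0.29, unadjusted p = 0.0262, adjusted p = 0.251). TL exceeded YL by 0.44 (SE 0.29, adjusted p = 0.711), and the interaction was -1.26 (SE 0.41, unadjusted p = 0.0185, adjusted p = 0.371). The altitude average, which pools both breeds, was -0.74 (SE 0.2, unadjusted p = 0.00909, adjusted p = 0.494). Without YL2 these were 0.54 (SE 0.35, adjusted p = 0.726) for TL vs. YL, -1.36 (SE 0.45, adjusted p = 0.332) for the interaction and -0.68 (SE 0.22, adjusted p = 0.442) for the altitude average.

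The scaffold row held a small and variable share of the reads of both rows. That share was 1.77% (95% exact binomial CI 1.5 to 2.07) in TH1 and 1.5% (1.23 to 1.82) in TH2, 4.03% (3.7 to 4.39) in TL1 and 3.33% (3.05 to 3.62) in TL2. It was 1.88% (1.66 to 2.13) in YH1 and 4.11% (3.77 to 4.46) in YH2, 2.13% (1.87 to 2.41) in YL1 and 3.55% (3.26 to 3.87) in YL2. The intervals, which cover counting error only, overlapped between the libraries of TH and did not overlap between those of TL, YH or YL. The 3 panels on the rows of ADCY6 show these levels and shares.

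**Figure D3:**
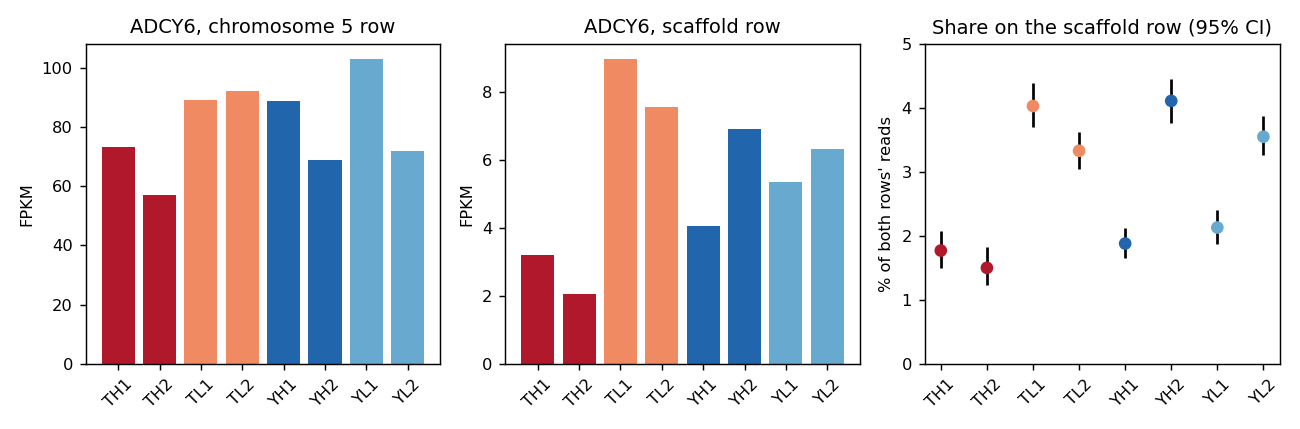
FPKM of the chromosome 5 row and of the scaffold row of ADCY6 in each library (bars from 0), and the percentage of both rows' reads that fell on the scaffold row with its 95% exact binomial interval (points and lines). Both TH libraries are low on the scaffold row (3.2 and 2.06 FPKM) and in its share, while YH1 and YH2 differ in share (1.88% and 4.11%).

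By the range of group means the scaffold row was the most variable of the 7, at 1.36 on the log2 scale, against 0.97 for ADCY5, 0.95 for GRK5, 0.78 for ADRA1B, 0.71 for ADRB1, 0.57 for ADRBK1 and 0.48 for the chromosome 5 row of ADCY6. The tested genes with the profile nearest to it over the 8 libraries were HAPLN3 (mean absolute difference 0.177), a gene with the ID ENSSSCG00000030140 and no symbol (0.19), NHSL1 (0.2), CLYBL (0.211) and TRPT1 (0.214), against a median of 0.525 over all genes tested. HAPLN3, for example, was at 10.1 and 7.19 FPKM in TH and at 27.5 and 18.2 FPKM in TL, with 14.4 to 19.6 FPKM in the Yorkshire libraries.

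The ratio of ADCY6 (chromosome 5) to ADCY5 was 6.14 and 7.46 for TH, 5.97 and 5.02 for TL, 7.94 and 9.05 for YH, and 9.95 and 11.8 for YL. Type 6 outweighed type 5 in every library, and each Tibetan value lay below each Yorkshire value. This comparison of ratios was made after the values were seen and has no test of its own. The breed averages of the genes taken alone were 0.51 (SE 0.24, adjusted p = 0.412 by limma) for ADCY5 and -0.1 (SE 0.19, adjusted p = 0.838) for ADCY6, and 0.34 (SE 0.22, adjusted p = 0.509) and -0.23 (SE 0.18, adjusted p = 0.575) without YL2.

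**Figure D4:**
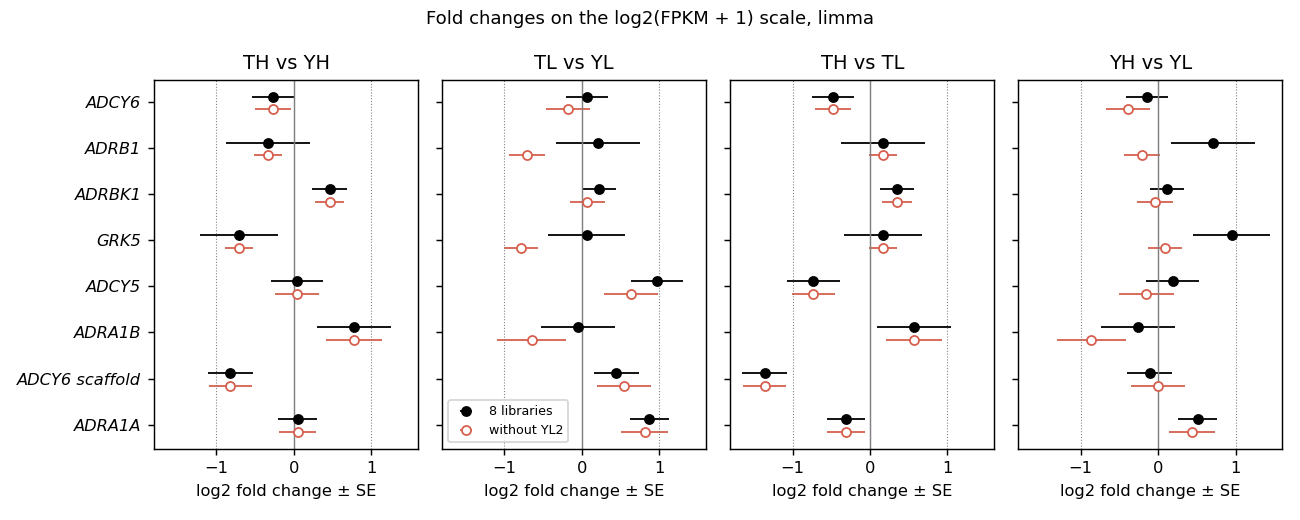
Log2 fold change with its SE on the log2(FPKM + 1) scale for each gene in the comparisons of breeds (left panels) and of altitudes (right panels), with all 8 libraries (filled) and without YL2 (open), and dotted lines at -1 and 1. In TL vs. YL the points of ADRB1 and GRK5 cross from 0.21 and 0.06 to -0.71 and -0.79 when YL2 is left out.

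Across the 7 rows tested, 5 were apart in TH vs. YH, namely ADRA1B and ADRBK1 higher and ADRB1, GRK5 and the scaffold row of ADCY6 lower in TH, where 52.5% of all genes tested were apart (25.2% higher and 27.3% lower). In TL vs. YL, 3 were apart (ADRBK1, ADCY5 and the scaffold row, all higher in TL), against 41.5% of all genes (23.8% higher and 17.8% lower). In TH vs. TL, 6 were apart, with ADRB1, ADRBK1 and GRK5 higher and ADCY5 and both rows of ADCY6 lower in TH, against 48.5% (24% higher and 24.5% lower). In YH vs. YL only GRK5 was apart, and higher in YH, against 36.3% of all genes (21.9% higher and 14.4% lower). For the breed average only ADRBK1 was apart. For the altitude average none of the 7 was apart, against 2.69% of all genes, and limma called 0 of them with 1 at an unadjusted p under 0.05. Without YL2, ADRBK1 (higher), ADRB1 and GRK5 (lower) were apart between the breeds, against 14.6% of all genes, and the chromosome 5 row of ADCY6 was lower in every highland library, against 5.7% of all genes apart in either direction. The comparisons share libraries and are not independent of each other. The median log2 fold change of the 7 rows was -0.27 in TH vs. YH, 0.21 in TL vs. YL, 0.17 in TH vs. TL and 0.11 in YH vs. YL, and that of all genes tested was -0.03, 0.02, -0.02 and 0.03. Without YL2 the median of the 7 rows was -0.18 in TL vs. YL and -0.15 in YH vs. YL.

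Levels were also set against 1 of the 8 matched cardiomyocyte genes. RYR2, the calcium release channel of cardiac muscle, was at 39.8 and 33.9 FPKM in TH, 50.2 and 48.9 FPKM in TL, 51.4 and 56.4 FPKM in YH, and 56.2 and 21 FPKM in YL. The ratio of GRK5 to RYR2 was 0.391 and 0.547 for TH, 0.294 and 0.31 for TL, 0.546 and 0.511 for YH, and 0.474 and 0.356 for YL. Taken this way YL2 no longer had the lowest value, TH overlapped YH, and both TL values lay below both YL values. The ratio of ADRB1 to RYR2 was 0.734 and 1.04 for TH, 0.567 and 0.576 for TL, 0.751 and 0.752 for YH, and 0.835 and 0.588 for YL. Here too TH and YH overlapped, and TL was the lowest. The ratio of ADRBK1 to RYR2 was 0.787 and 0.724 for TH, 0.424 and 0.446 for TL, 0.379 and 0.359 for YH, and 0.366 and 0.78 for YL, so that the Tibetan libraries no longer all exceeded the Yorkshire ones. Both TH libraries remained above both YH libraries. Other separations were also lost on this scale: ADCY6 (chromosome 5) was at 1.84 and 1.68 in TH against 1.78 and 1.89 in TL, with 3.43 in YL2, and ADCY5 at 0.299 and 0.226 in TH overlapped 0.298 and 0.376 in TL. The scaffold row in TH (0.0802 and 0.0608) overlapped YH (0.0789 and 0.122) but stayed below TL (0.178 and 0.155). ADRA1A in YL2, at 0.0493, no longer lay below the other groups. ADRA1B stayed higher in TH (0.229 and 0.23) than in YH (0.092 and 0.075). These ratios depend on the gene set below the line, because RYR2 was lower in TH than in TL and YH while TNNI3, a troponin subunit, was highest in TH1 (16800 FPKM). With each of the 8 cardiomyocyte genes in turn, a check chosen after seeing the data, ADRA1B was apart and higher in TH than in YH for 7 of them and overlapped for 1. Such counts have no share over all genes beside them, and the 8 genes are not independent of each other. Like RYR2, CKM (1300 and 917 FPKM in TH, 2350 and 2090 FPKM in YH) and MYH6 were lower in TH than in YH, which raises ratios over them. ADRBK1 was higher in TH than in YH for 6, lower for 1 and overlapping for 1. GRK5 was lower in TH than in YH for 4, higher for 1 and overlapping for 3, and ADRB1 was lower for 1, higher for 2 and overlapping for 5. In TH vs. TL the chromosome 5 row of ADCY6 and ADCY5 were each higher for 4, lower for 3 and overlapping for 1, so that their order turned with the denominator. Counts of 7 were also found for ADRBK1 (higher) and the scaffold row (lower) in TH vs. TL. With YL2 included, they were found for GRK5 in TL vs. YL (lower) and in YH vs. YL (higher, and lower for 1), and for ADRA1B in YH vs. YL (lower).

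The rest of the pathway was followed through 132 further names in 10 lists, of which 119 were matched and 88 could be tested. No gene of these lists was called by limma in any comparison. At an unadjusted p under 0.05, 18 of the 88 (20.5%) were picked in TH vs. YH, 4 higher and 14 lower in TH, against 16.2% of all genes (7.71% higher and 8.47% lower). In TL vs. YL there were 10 (11.4%, against 8.94%), 8 higher and 2 lower in TL, against 5.9% and 3.04% of all genes. In TH vs. TL there were 14 (15.9%, against 11.3%), 2 higher and 12 lower in TH, against 5.81% and 5.53%. In YH vs. YL there were 9 of 88, 7 higher and 2 lower in YH, against 4.39% and 1.58%. The lists were drawn up with earlier results of these libraries known, and their genes are not independent of each other. The median log2 fold change of the 88 genes was -0.25, 0.28, -0.14 and 0.27 in these comparisons. Without YL2 the counts were 28 in TH vs. YH (6 higher and 22 lower, 31.8% against 22.7% of all genes), 11 in TL vs. YL (12.5% against 9.72%), 20 in TH vs. TL (22.7% against 17.1%) and 6 in YH vs. YL (6.82% against 5.45%), and again no gene was called. The medians of the comparisons with YL were then 0.1 and 0.07. Leaving out TH1 makes TH a single library. The median of the 88 genes was then -0.14 in TH vs. YH (-0.25 with TH1) and -0.06 in TH vs. TL (-0.14 with TH1). How far the excess of lower genes in TH rests on TH1 was not tested. The plot of the pathway lists shows each gene.

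**Figure D5:**
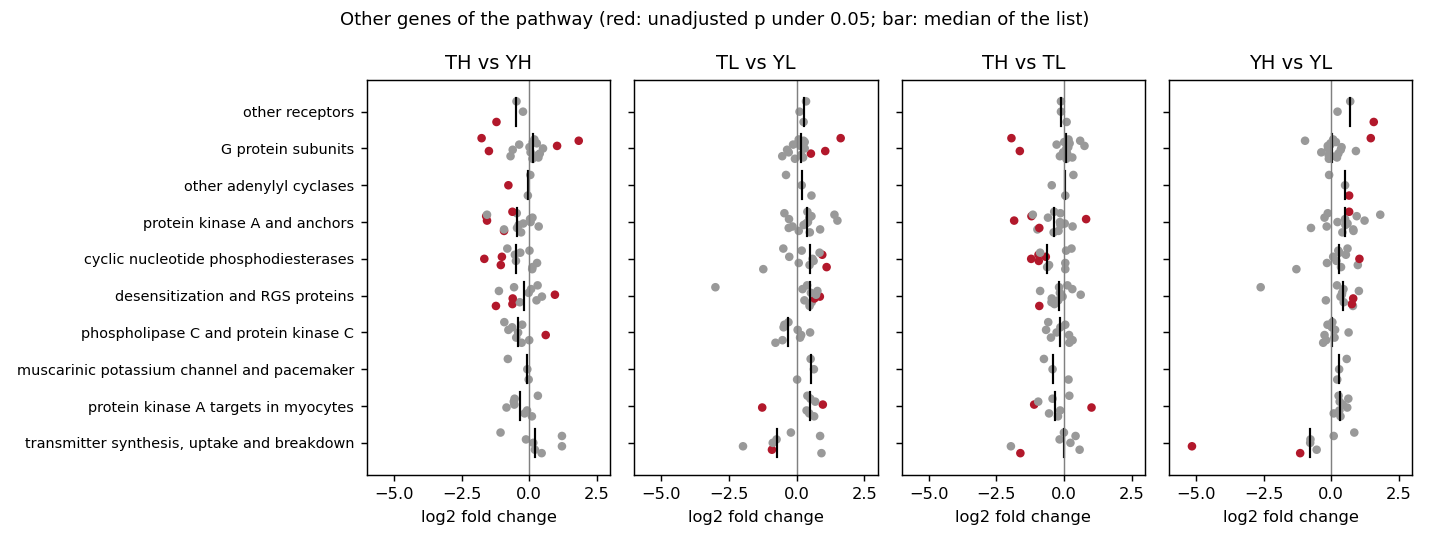
Log2 fold change of each tested gene (points) of 10 pathway lists in the 4 comparisons of groups, with red for an unadjusted p under 0.05 and a bar at the median of the list. Most lists spread to both sides of 0 in each comparison, and DDC lies far below the rest in YH vs. YL (-5.15).

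Of 9 other receptors, 3 were tested. ADRA2C, which encodes an alpha-2 receptor, lay between 6.58 and 11 FPKM. ADRA1D, the alpha-1D receptor, was at 2.77 and 1.76 FPKM in TH, 1.72 and 2.33 FPKM in TL, 5.08 and 8.17 FPKM in YH, and 1.13 and 1.97 FPKM in YL. Both YH libraries exceeded all others. TH lay below YH by -1.21 (SE 0.31, unadjusted p = 0.00626, adjusted p = 0.169), and YH exceeded YL by 1.57 (SE 0.31, unadjusted p = 0.00159, adjusted p = 0.582), or by 1.81 (SE 0.35, adjusted p = 0.404) without YL2. ADRA2A, ADRA2B, CHRM1, CHRM3, CHRM4 and CHRM5 stayed at or under 0.998 FPKM in every library and were not tested.

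The 17 G protein subunits matched were all tested, and 4 of them passed an unadjusted p of 0.05 in TH vs. YH, against 16.2% of all genes. GNAS, the stimulatory alpha subunit, was the most abundant, between 408 and 791 FPKM, followed by GNG11, a gamma subunit, between 60.2 and 107 FPKM, and GNAI2, an inhibitory alpha subunit, between 34.7 and 69.6 FPKM. GNAO1, a related alpha subunit, was at 0.386 and 1.1 FPKM in TH, 5.28 and 3.47 FPKM in TL, 2.95 and 4.79 FPKM in YH, and 2.68 and 0.761 FPKM in YL. TH lay below YH by -1.49 (SE 0.43, adjusted p = 0.189) and below TL by -1.63 (SE 0.43, adjusted p = 0.263). GNG7, a gamma subunit, was at 8.12 and 21.9 FPKM in TH, 65.2 and 45.3 FPKM in TL, 39.1 and 58.8 FPKM in YH, and 27.1 and 10.3 FPKM in YL. TH lay below TL by -1.94 (SE 0.57, unadjusted p = 0.0123, adjusted p = 0.305) and below YH by -1.76 (SE 0.57, unadjusted p = 0.0188, adjusted p = 0.229), or by -1.28 (SE 0.61, adjusted p = 0.653) and -1.1 (SE 0.61, adjusted p = 0.685) without TH1. TL exceeded YL by 1.63 (SE 0.57, adjusted p = 0.461), or by 0.98 (SE 0.57, adjusted p = 0.679) without YL2, and YH exceeded YL by 1.46 (SE 0.57, adjusted p = 0.784), or by 0.8 (SE 0.57, adjusted p = 0.917) without YL2.

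Of the other cyclases, ADCY4 lay between 3.71 and 8.39 FPKM and ADCY9 between 2.87 and 5.86 FPKM, well under ADCY6. ADCY7 was at 0.447 and 1.23 FPKM in TH and 1.76 and 2.38 FPKM in YH, a log2 fold change of -0.77 (SE 0.27, adjusted p = 0.246), or -0.46 (SE 0.23, adjusted p = 0.644) without TH1. No list of cyclases, receptors or channels held a gene whose adjusted p was under 0.169 in TH vs. YH.

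Among 15 tested genes for protein kinase A and its anchors, 4 were lower in TH than in YH at an unadjusted p under 0.05 and none was higher, where 8.47% of all genes tested were lower. The median log2 fold change of the list was -0.45, and -0.29 without TH1. PRKACA, the catalytic subunit, lay between 46.1 FPKM in YL2 and 89.8 FPKM in TL2, and PKIA, an inhibitor of the kinase, between 66.4 FPKM in YL2 and 181 FPKM in YL1. PRKAR1A, a regulatory subunit, was at 145 and 148 FPKM in TH and 76.9 and 88.1 FPKM in TL, higher in TH by 0.82 (SE 0.25, adjusted p = 0.314). PRKAR2A, another regulatory subunit, was at 3.21 and 12.9 FPKM in TH and 22.2 and 21.9 FPKM in YH, lower in TH by -1.59 (SE 0.5, adjusted p = 0.219), with TH1 far below TH2, and -0.73 (SE 0.18, adjusted p = 0.355) without TH1. RAPGEF4, a cyclic AMP sensor that acts beside protein kinase A, was at 9.37 and 6.63 FPKM in YH and 5.28 and 4.09 FPKM in YL, higher in YH by 0.66 (SE 0.23, adjusted p = 0.784), or by 0.5 (SE 0.26, adjusted p = 0.917) without YL2.

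The phosphodiesterases break down cyclic nucleotides. Of 11 tested, 3 were lower in TH than in YH and 4 lower in TH than in TL at an unadjusted p under 0.05, and none was higher. Of all genes tested, 8.47% were lower in TH than in YH and 5.53% lower in TH than in TL. In TH vs. TL the median of the list was -0.62, and -0.47 without TH1. Without TH1, PDE4D was at -1.02, PDE4A at -0.85 and PDE4C at -0.66 in that comparison, against -0.94, -0.93 and -0.67 with it. Counts this small in a list of related genes give no result about phosphodiesterases as a group. PDE4B, which degrades cyclic AMP, was at 5.04 and 6.6 FPKM in TH, 14.7 and 14.7 FPKM in TL, 19.8 and 21.1 FPKM in YH, and 14 and 6.24 FPKM in YL. The 2 TH libraries lay with YL2 at the bottom. TH was below YH by -1.66 (SE 0.35, unadjusted p = 0.00215, adjusted p = 0.118), the lowest adjusted p of any gene of the lists in that comparison, and below TL by -1.21 (SE 0.35, adjusted p = 0.295). Without YL2 the same differences had adjusted p = 0.0323 and 0.0711 by limma, still above the threshold of 0.01, and without TH1 they were -1.5 (adjusted p = 0.426) and -1.04 (adjusted p = 0.612). YH exceeded YL by 1.04 (SE 0.35, adjusted p = 0.764), or by 0.51 (SE 0.23, adjusted p = 0.917) without YL2. PDE4D, of the same family, was at 20 and 17.8 FPKM in TH against 35.9 and 38.4 FPKM in TL. PDE2A was scarce, at 1.37 and 1.34 FPKM in TL and 0.0969 and 0.0907 FPKM in YL, higher in TL by 1.11 (SE 0.3, unadjusted p = 0.00805, adjusted p = 0.336), or by 1.1 (SE 0.37, adjusted p = 0.423) without YL2.

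Of 12 tested genes for desensitization and RGS proteins, which speed the shut-off of G proteins, 4 passed an unadjusted p of 0.05 in TH vs. YH, 1 higher and 3 lower in TH, against 7.71% and 8.47% of all genes. The median log2 fold change of the list was -0.19, and -0.09 without TH1. ADRBK2, the gene of GRK3, a close relative of GRK2, was at 4.9 and 7.77 FPKM in TH, 12 and 13 FPKM in TL, 15.2 and 16.6 FPKM in YH, and 12.3 and 6.06 FPKM in YL. TH was below YH by -1.23 (SE 0.34, unadjusted p = 0.00939, adjusted p = 0.187) and below TL by -0.91 (SE 0.34, adjusted p = 0.386), or by -0.94 (adjusted p = 0.567) and -0.62 (adjusted p = 0.758) without TH1. In these values ADRBK2 was lowest in TH1 and YL2, whereas ADRBK1 was highest in TH1. RGS10, near 1 FPKM, was higher in TL than in YL by 0.66 (SE 0.23, adjusted p = 0.455) and higher in YH than in YL by 0.81 (SE 0.23, adjusted p = 0.691), or by 0.83 (SE 0.25, adjusted p = 0.36) and 0.99 (SE 0.25, adjusted p = 0.528) without YL2. SLC9A3R1, a scaffold protein of the cell membrane that is abundant in kidney, was at 179 FPKM in YL2 and at 1.78 to 3.46 FPKM elsewhere. RGS5, a gene of pericytes and smooth muscle, ranged from 13.5 FPKM in TH1 and 22.5 FPKM in YL2 to 90.9 FPKM in YH1.

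On the alpha-1 arm, PLCB3, a phospholipase C, was at 6.82 and 5.78 FPKM in TH and 3.75 and 3.78 FPKM in YH, higher in TH by 0.61 (SE 0.2, adjusted p = 0.222), and it was the only 1 of 9 tested genes of its list to pass an unadjusted p of 0.05 in that comparison (11.1%, against 16.2% of all genes). On the muscarinic arm, KCNJ3 and KCNJ5, the subunits of the potassium channel opened by M2 receptors, lay between 5.71 and 17.8 FPKM and between 16.2 and 43.7 FPKM. None of the 3 tested genes of that list passed an unadjusted p of 0.05 in the 4 comparisons of groups, where 5.97% to 16.2% of all genes did, and a count of 0 among 3 genes shows nothing about the list.

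Among the targets of protein kinase A, PLN, which encodes phospholamban, lay between 822 FPKM in YL2 and 2190 FPKM in TL1, with 1120 and 1010 FPKM in TH. MYBPC3, a sarcomere protein, was at 650 and 419 FPKM in TH and 1090 and 1140 FPKM in TL, lower in TH by -1.1 (SE 0.38, adjusted p = 0.353). LIPE, hormone-sensitive lipase, was at 3.36 and 2.12 FPKM in TL and 9.85 and 6.29 FPKM in YL, lower in TL by -1.27 (SE 0.36, adjusted p = 0.343), or by -1.56 (SE 0.4, adjusted p = 0.297) without YL2.

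Among genes that make and break down transmitters, some stood far higher in YL2 than elsewhere. DDC, which makes dopamine from L-DOPA and is abundant in kidney tubules, was at 247 FPKM in YL2 and 7.69 FPKM in YL1, and at 0.24 and 0.384 FPKM in YH, 8.74 and 13.3 FPKM in TL, and 1.46 and 2.74 FPKM in TH. YH vs. YL was -5.15 (SE 1.34, adjusted p = 0.681), and -2.73 (SE 0.35, adjusted p = 0.154) without YL2. Without YL1, YH vs. YL was -7.57 (adjusted p = 0.000441), a call that rests on YL2. The altitude average was -3.55 (SE 0.95, adjusted p = 0.465), and -2.34 (SE 0.23, adjusted p = 0.0336) without YL2, and TH vs. TL was -1.96 (SE 1.34, adjusted p = 0.629), with an adjusted p of 0.0625 without YL2. MAOB, a monoamine oxidase, was at 88.1 FPKM in YL2 and at 7.58 to 16.4 FPKM elsewhere. BCHE, which breaks down choline esters, was at 1.59 and 1.32 FPKM in TH and 6.38 and 6.58 FPKM in TL, lower in TH by -1.61 (SE 0.39, unadjusted p = 0.00465, adjusted p = 0.245). The YL2 levels of DDC and MAOB stood beside the high kidney genes of that library, whose part in them was not tested.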

How the data were processed

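Total RNA of heart was sequenced in 8 libraries, 2 for each of 4 groups, each pooled from 4 pigs. Per the submitters' processing notes the tools were Bowtie 0.12.5, TopHat2 2.0.9 and DESeq 1.10.1, with the genome Sscrofa10.2. The deposited FPKM were computed by the authors with Cufflinks and were used for every level and test. A second deposited signal, reads scaled by 1 factor per library, was divided by that factor. At least 99.7% of values under 50 reads were then whole within 0.02 reads, and these reads served for depth and read numbers. Columns with the authors' group means and ratios were not used.

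Groups were taken from the sample titles and compared with limma 3.58.1 in R 4.3.3, with a trend on the mean and no replicate block, on log2(FPKM + 1). Prior and residual degrees of freedom were 2.83 and 4. With 2 libraries against 2, an exact permutation test cannot give a p under 0.333, or 0.0286 for 4 against 4, and none was used. The study's methods call the 2 pools of a group biological replicates, so the p-values measure the spread between pools of pigs. The fit was tested on simulated data. Figures were drawn with matplotlib 3.10.9 in Python 3.11.15.

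The genes, the pathway lists and the marker lists were chosen with earlier results of these data known. Named genes were every gene of the set that was found; in each list the 3 with the highest mean, any called, and that with the lowest unadjusted p under 0.05 in each comparison of groups; and the 5 genes nearest to the most variable row. Some genes of the lists are not reported here.

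Alternatives were an adjusted p under 0.05, a pseudocount of 0.1, no filter, a mean of at least 5 FPKM, median-ratio scaling, no trend, the replicate block, a fit of the 4 libraries compared alone, and each library left out. A fit on log2(scaled reads + 10) was chosen after seeing the data. No sequence is printed, since none was used here.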

Additional observations from a re-analysis of the deposited data

Results flagged for a closer look

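The difference between breeds in the scaffold row of ADCY6 went in opposite directions at the altitudes. TH lay below YH by -0.82 on the log2(FPKM + 1) scale, and TL lay above YL by 0.44, with no overlap of libraries in either comparison. The test of the difference itself, the interaction of breed with altitude, gave -1.26 (SE 0.41, adjusted p = 0.371 by limma) and did not pass the threshold. Over the alternatives tried the interaction lay between -1.61 and -0.94, with an adjusted p from 0.182 to 0.897.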

How the results depend on the processing

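Depth allowed no statement on ADRB3, and 2 pooled libraries per group left intervals of about 1 log2 unit or more. The same-number correlations of deviations from the group means were -0.08 to 0.12, so the numbers do not pair the libraries. Under the replicate block 0 of the 7 rows were called in every comparison, and of all genes it called 3 in TH vs. YH, 4 in TH vs. TL and 5 for the breed average, against 4, 6 and 6 without it, and the same number in each other comparison. The planned edgeR test was not run, since the signal did not give whole reads for every value.

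Calls among all genes became 31 in TH vs. YH, 12 in TH vs. TL and 54 for the breed average at an adjusted p under 0.05. They became 2 in TL vs. YL and 11 in TH vs. TL with only the libraries compared, and 1 in YH vs. YL with a pseudocount of 0.1. On scaled reads, chosen after seeing the data, 0 were called for TH vs. YH, for TL vs. YL, for the interaction, the breed average and the altitude average, and 2 in TH vs. TL. Leaving out each library in turn gave 1 to 305 calls in TL vs. YL, 4 to 13 in TH vs. TL, 0 to 305 in YH vs. YL, 4 to 152 for the interaction, 4 to 227 for the breed average and 4 to 166 for the altitude average, with the highest counts but that of TH vs. TL found only without YL1, where the lone YL2 is assumed to vary like the other groups. Without YL2 the counts were 3 in TL vs. YL, 13 in TH vs. TL, 7 for the interaction, 10 for the breed average and 7 for the altitude average. Calls among the 7 rows stayed at 0 under every alternative run except YH vs. YL without YL1, with 1 (GRK5).

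Median-ratio scaling moved the median of all genes by up to 0.1 (TH vs. YH from -0.03 to -0.13) and turned the direction of ADCY5 (-0.07) and ADRA1A (-0.04) in TH vs. YH and of GRK5 (-0.01) and ADCY6 (-0.01) in TL vs. YL. Scaled reads turned ADCY5 in TH vs. YH (-0.03). Leaving out libraries turned the direction within these ranges, none of them called. TH vs. YH ran from -0.25 to 0.33 for ADCY5 and from -0.11 to 0.21 for ADRA1A. TL vs. YL ran from -0.65 to 0.56 for ADRA1B, -0.71 to 1.13 for ADRB1, -0.79 to 0.91 for GRK5 and -0.18 to 0.33 for ADCY6. YH vs. YL ran from -0.15 to 0.53 for ADCY5, -0.43 to 0.21 for the scaffold row, -0.39 to 0.12 for ADCY6, -0.86 to 0.35 for ADRA1B, -0.21 to 1.64 for ADRB1 and -0.04 to 0.26 for ADRBK1. The interaction ran from -1.46 to 0.38 for ADRB1 and from -1.62 to 0.08 for GRK5. The breed average ran from -0.52 to 0.4 for ADRB1, -0.75 to 0.1 for GRK5 and -0.23 to 0.03 for ADCY6, and the altitude average from -0.15 to 0.46 for ADRA1B, -0.02 to 0.22 for ADRA1A and -0.02 to 0.9 for ADRB1. The cause was not tested. The other 1303 fold changes kept their direction and their side of the threshold, while GRK5 (1.8) and DDC (-7.57) were called in YH vs. YL without YL1.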
